A study of Mus musculus with 4 samples.

Results

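The miR-26 family was examined in small RNA libraries of mouse C2C12 myotubes. Its members were taken by name and comprised the 5p guide sequences miR-26a-5p and miR-26b-5p and the 3p arms miR-26a-1-3p, miR-26a-2-3p and miR-26b-3p. All 5 were found among the 869 miRNAs detected in any library, although miR-26a-1-3p was missing from 1 library. C2C12 is a line of mouse myoblasts that fuse to myotubes when serum is reduced, and its strain background is labelled 129/Rej. RNA was taken on day 6 of differentiation from a negative control without guanidineacetic acid (NC, 2 samples) and from myotubes given 20 mM of guanidineacetic acid (GAA, 2 samples), a precursor of creatine. Both groups were otherwise kept in the same medium, with high glucose and horse serum. The labels do not say whether the replicates came from separate cultures, so the p-values measure only the spread between these samples, which may be technical.

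The miR-26 genes lie in introns of the Ctdsp genes, which encode small phosphatases that act on the C-terminal domain of RNA polymerase II. A hairpin cut from such an intron gives a 5p and a 3p strand, of which one is usually loaded into Argonaute as the guide and the other is mostly degraded. In muscle, miR-26a is known to favour myoblast differentiation, and among its known targets are the Polycomb methyltransferase Ezh2 and the signal transducers Smad1 and Smad4. The mature sequences are printed here because the results turn on which sequence comes from which gene, and capitals mark the seed (bases 2 to 8).

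miR-26a-5p: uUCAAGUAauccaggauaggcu

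miR-26b-5p: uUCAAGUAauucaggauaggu

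miR-26a-1-3p: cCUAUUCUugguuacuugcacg

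miR-26a-2-3p: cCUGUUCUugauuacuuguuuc

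miR-26b-3p: cCUGUUCUccauuacuuggcuc

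These RefSeq sequences (GRCm38.p6) showed 1 seed for both guides and 2 seeds among the 3p arms. In the RefSeq table only miR-26a-5p and miR-26b-5p carried the seed UCAAGUA. They differed at 2 of 21 compared positions, C11U and C21U, where positions are counted from 1 at the 5′ end and the base of miR-26a-5p is given first. Among the 3p arms, miR-26a-2-3p and miR-26b-3p shared the seed CUGUUCU, whereas miR-26a-1-3p differed from miR-26a-2-3p inside the seed by A4G and had the seed CUAUUCU to itself. Other miRNAs of the table with the seed CUGUUCU, miR-6932-3p and miR-7039-3p, were not detected in these libraries. The table held a sequence for 717 of the 869 detected miRNAs, and the others were not searched for these seeds.

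The 22 bases of miR-26a-5p occurred without mismatch in 2 of the 1005 hairpins searched, Mir26a-1 and Mir26a-2, and every other member occurred in 1. The reads of miR-26a-5p therefore cannot be assigned to either gene, and the copies were compared by their 3p arms, which differed at 6 of 22 positions. Mir26a-1 lies at chr9:119031796-119031885 on the plus strand (GRCm38), in intron 5 of 7 of Ctdspl (transcript Ctdspl-201). Mir26a-2 lies at chr10:126995530-126995613 on the plus strand, in intron 5 of 7 of Ctdsp2 (transcript Ctdsp2-202), and 1 base at its end overlaps an exon in 2 other transcripts of this gene. Mir26b lies at chr1:74394310-74394394 on the plus strand, in intron 4 of 6 of Ctdsp1 (transcript Ctdsp1-201). Each hairpin had the orientation of its host, and no gene other than the host was annotated over it. The host introns differed in length, with 3283 bases in Ctdspl, 1946 in Ctdsp2 and 564 in Ctdsp1. The host mRNAs were not measured by these libraries.

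The files give each miRNA as log2(RPM + 1), where RPM stands for its reads per 1000000 mappable reads. In each library the RPM values rose in equal steps, from which the number of reads was recovered, and 95.6% of the values came out whole within 0.05. The miRNA reads numbered 1653803 to 3134241 per library, and they made up 33.6% and 43.6% of the mappable reads in NC against 56.3% and 50.4% in GAA. The part of this difference in the RPM values was not tested, and each member is given both in RPM and as a share of the miRNA reads. The skeletal muscle miRNAs miR-1a-3p, miR-133a-3p, miR-133b-3p, miR-206-3p, miR-208b-3p and miR-499-5p together reached 5630.3 and 7100.3 RPM in NC against 4518 and 4894 RPM in GAA, without overlap. Listed markers of other cell types were low. The 4 blood and immune markers summed to 9.34 and 9.09 RPM in NC and 20.3 and 15.2 RPM in GAA, the endothelial miR-126a-3p stood at 1.06 to 3.23 RPM, the liver miR-122-5p at 0 to 3.05 RPM and the neuronal miR-124-3p at 0.177 to 0.359 RPM. Their part in the results was not tested.

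miR-26a-5p was by far the most abundant member and ranked 5 among all detected miRNAs by mean RPM. The NC libraries held 72515 and 72713 of its reads, and the GAA libraries 132793 and 113954, of which the last number was not whole before rounding. These reads corresponded to 14725 and 15365 RPM in NC and to 23856 and 20141 RPM in GAA. miR-26b-5p, the other guide, ranked 41, with 1241 and 1524 RPM in NC against 1809.6 and 1680.4 RPM in GAA. In RPM, both guides were higher in each GAA sample than in either NC sample.

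The 3p arms were present at far lower levels. miR-26b-3p stood at 7.72 and 6.97 RPM in NC and at 13.7 and 15.2 RPM in GAA, from 38 and 33 reads against 76 and 86. miR-26a-2-3p stood at 2.23 and 3.80 RPM in NC and at 5.39 and 4.42 RPM in GAA, from 11 and 18 reads against 30 and 25. For both of these arms the GAA samples lay above the NC samples. miR-26a-1-3p was at the limit of the depth, with 0 and 1 read in NC and 3 reads in each GAA sample. Its highest level, 0.539 RPM, equals the level that 3 reads give in that library, so no fold change is given for it. The order of the members, miR-26a-5p, miR-26b-5p, miR-26b-3p, miR-26a-2-3p and miR-26a-1-3p, was the same in all 4 libraries, and neighbours in this order did not overlap.

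**Figure D1:**
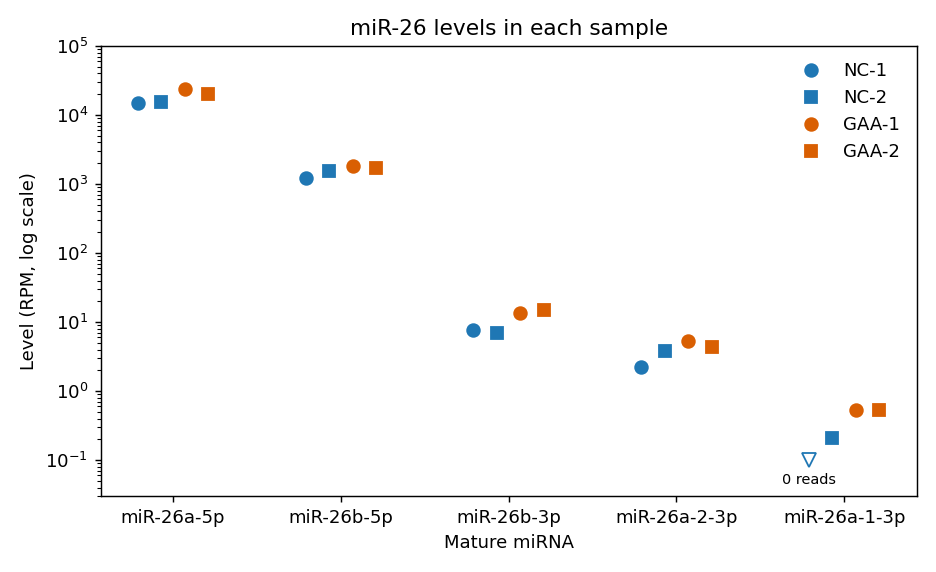
Level of each miR-26 member in each of the 4 samples, in RPM on a log axis, with a separate symbol for each sample and the library without a read of miR-26a-1-3p marked as 0 reads. miR-26a-5p lies between 14725 and 23856 RPM and the 3p arms at or below 15.2 RPM.

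Together the members took 4.76% and 3.87% of the miRNA reads in NC, against 4.56% and 4.33% in GAA. The NC samples lay on either side of the GAA samples. The mean share in NC was 4.31% ± 0.63 (SD, n = 2), and with GAA it was 4.45% ± 0.16 (SD, n = 2), a difference smaller than the spread in NC (exact permutation test, two-sided, p = 1). Such a test of 2 against 2 samples cannot give a p below 0.333. In RPM, the family summed to 15976 and 16900 in NC against 25685 and 21842 in GAA, without overlap, and the mean in GAA was 1.45 times that in NC.

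The change with GAA was then compared member by member. A limma fit across the whole table of log2(RPM + 1) values called 0 of the 5 members at the limits of the study, a false discovery rate below 0.01 and a log2 fold change of more than 1 in size. The same fit called 0% of all miRNAs. At an unadjusted p under 0.05 it gave 2 members, miR-26b-3p and the nearly undetected miR-26a-1-3p, and 152 miRNAs in all. Both GAA samples lay above both NC samples in RPM for 5 of 5 members, an order found for 38.6% of all detected miRNAs, and the reverse order was found for 0 members and 5.52% of all. In each library, 10 reads or more were reached by 323 miRNAs, among them all members but miR-26a-1-3p. Of these 323, 64.4% lay above NC in both GAA samples and 2.79% below, against 4 and 0 of the 4 members.

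Among these 4 members, miR-26b-3p had the largest log2 fold change in RPM, with mean levels of 7.34 ± 0.53 RPM in NC and 14.4 ± 1.1 RPM in GAA (SD, n = 2 each). Its log2 fold change was 0.89 (standard error 0.19, 95% interval 0.36 to 1.41, adjusted p = 0.205 with limma), which did not pass the threshold. The log2 fold change in RPM was 0.58 for miR-26a-2-3p (interval -0.25 to 1.41, adjusted p = 0.385 with limma; 0.29 without NC-1) and 0.54 for miR-26a-5p (interval -0.008 to 1.09, adjusted p = 0.284). It was 0.34 for miR-26b-5p (interval -0.17 to 0.85, adjusted p = 0.400 with limma) and 0.19 without NC-1. The median over the 323 miRNAs was 0.49 on the same scale, and lay inside each of these 4 intervals. These log2 fold changes are differences of log2(RPM + 1), so the added 1 lowers them for arms of a few RPM. With 0.1 added instead, the value was 0.72 for miR-26a-2-3p and 0.96 for miR-26b-3p. For miR-26a-5p and miR-26b-5p it stayed at 0.54 and 0.34.

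When the reads were divided by the miRNA reads of each library, that median was 0.022 and the members spread around it. miR-26a-5p took 4.38% (95% Wilson interval 4.35% to 4.42%) and 3.52% (3.50% to 3.55%) of the miRNA reads in NC. In GAA it took 4.24% (4.21% to 4.26%) and 3.997% (3.97% to 4.02%), between the NC samples. These intervals cover counting error only, since reads amplified by PCR are not independent molecules, and they are far narrower than the gap between the NC samples. The log2 fold change of miR-26a-5p was 0.067 (interval -0.46 to 0.59, adjusted p = 0.928 with limma), and without NC-2 it was -0.091.

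On this scale the arms of miR-26b went to opposite sides. miR-26b-5p took 0.370% and 0.349% of the miRNA reads in NC against 0.321% and 0.333% in GAA, where it was lower in each sample. Its log2 fold change was -0.13 (interval -0.55 to 0.28, adjusted p = 0.781 with limma). Per 1000000 miRNA reads, miR-26b-3p held 23.0 and 16.0 reads in NC against 24.2 and 30.2 in GAA, with both GAA samples above. Its log2 fold change was 0.48 (interval -0.22 to 1.17, adjusted p = 0.777 with limma), and 0.23 without NC-2 or 0.72 without NC-1. miR-26a-2-3p also lay above in GAA, with 9.57 and 8.77 reads per 1000000 miRNA reads against 6.65 and 8.71, although the closest samples of the groups were almost level. Its log2 fold change was 0.24 (interval -0.60 to 1.08, adjusted p = 0.810 with limma), and 0.065 without NC-1 or 0.41 without NC-2.

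By share of miRNA reads, 3 of 5 members, all of them 3p arms, lay above NC in both GAA samples, an order found for 18% of all detected miRNAs. A further 1 member lay below, as did 13.5% of all miRNAs. Over the 323 miRNAs these orders were found for 22.9% and 19.8%, and for 2 and 1 of the 4 members in that group. With limma, 0 members passed the thresholds by share and 0 had an unadjusted p under 0.05, whereas 1 miRNA in all (0.115%) passed the thresholds and 70 had such a p.

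**Figure D2:**
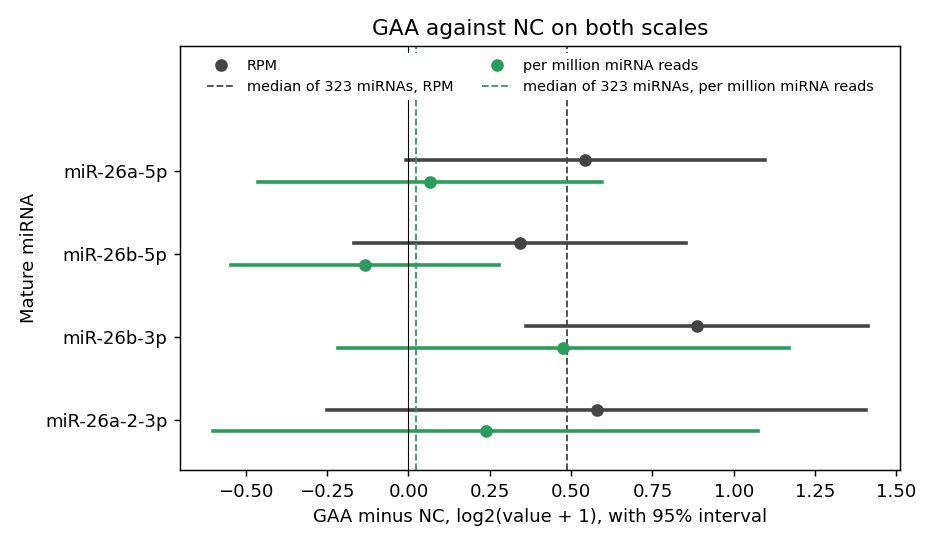
Difference between GAA and NC for the members with at least 10 reads in each library, on the log2(value + 1) scale with 95% limma intervals (grey, RPM; green, reads per 1000000 miRNA reads); dashed lines are the medians of the 323 miRNAs with such reads, 0.49 and 0.022. Each interval of the members spans the median of its own scale.

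**Figure D3:**
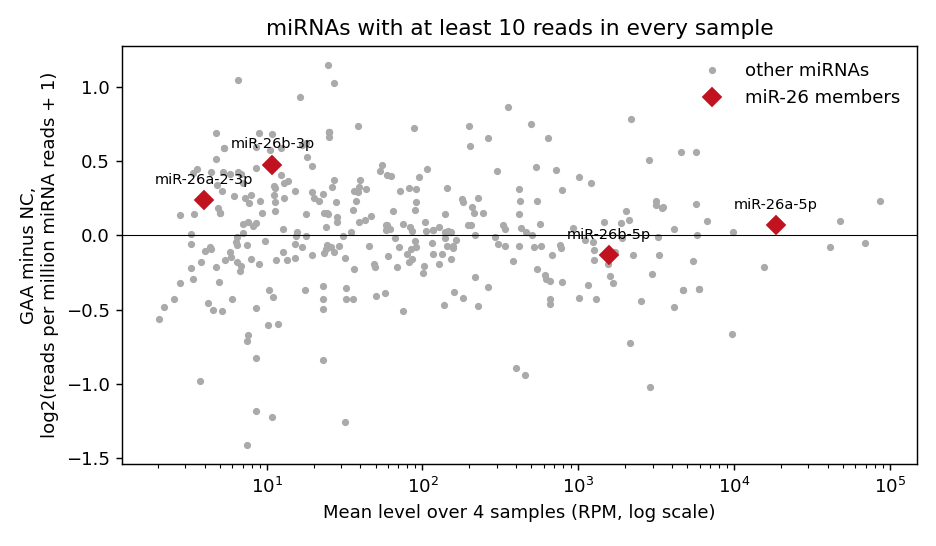
Difference between GAA and NC, in log2 of reads per 1000000 miRNA reads plus 1, against mean level in RPM on a log axis for the 323 miRNAs that reached 10 reads in each library. The red diamonds are the 4 miR-26 members of that group, with miR-26a-5p at 0.067 and miR-26b-3p at 0.48.

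The ratio of the members within a library does not depend on the divisor. miR-26a-5p exceeded miR-26b-5p by 11.9 and 10.1 times in NC and by 13.2 and 12.0 times in GAA. Both GAA samples lay above both NC samples, but GAA-2 and NC-1 differed little. The mean ratio was 11.0 ± 1.3 in NC and 12.6 ± 0.85 in GAA (SD, n = 2 each), with the smallest p that the test allows (exact permutation test, two-sided, p = 0.333). miR-26a-5p made up 92.2% and 90.9% of the family reads in NC and 92.9% and 92.2% in GAA, and miR-26b-5p nearly all of the remainder.

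The 3p arms showed another order. The reads of both miR-26a copies together came to 0.289 and 0.576 times those of miR-26b-3p in NC and to 0.434 and 0.326 times in GAA. Although miR-26b-5p held at most 9.02% of the family reads, miR-26b-3p held 77.6% and 63.5% of the family's 3p reads in NC against 69.7% and 75.4% in GAA. These ratios rest on 49 and 52 3p reads in the NC libraries and on 109 and 114 in the GAA libraries.

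Reads of the 5p arm exceeded those of the 3p arm for both miR-26a and miR-26b, but to a different degree. With the 3p reads of both copies summed, the ratio of 5p to 3p for miR-26a was 6592 and 3827 in NC against 4024 and 4069.8 in GAA. The ratio for miR-26b was 160.9 and 218 in NC against 133 and 111 in GAA. The ratio of miR-26a was thus 17.5 to 41.0 times that of miR-26b within a library, and it was higher in 4 of 4 libraries (exact sign-flip permutation test, two-sided, p = 0.125, the smallest that 4 libraries allow). Arms of 85 miRNAs named without a copy number, miR-26b among them, both reached 10 reads in each library. This minimum leaves out miRNAs with a nearly absent arm, so miR-26a and miR-26b were not compared with those. In absolute log2 ratio between the arms, with a median of 4.11, miR-26b ranked 16 of 85 at 7.23. By the mean of 4 libraries none of the 85 reached the 12.14 of miR-26a, the highest being the 11.86 of miR-143, whose 3p arm is the higher one. This order did not hold in every library, since in NC-2 miR-143 stood at 12.28 and miR-26a at 11.90, and the highest value of miR-26a, 12.69 in NC-1, rests on 11 reads of its 3p arms.

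**Figure D4:**
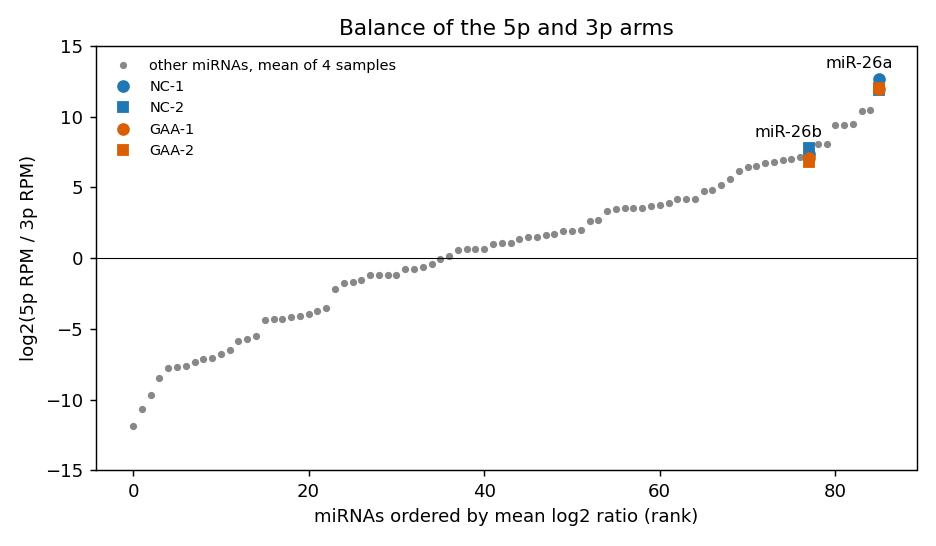
log2 ratio of the 5p to the 3p arm for 85 miRNAs with at least 10 reads of each arm in every library (grey points, mean of 4 samples), with miR-26b and miR-26a (3p reads of both copies summed) shown per sample in the colours of NC and GAA. miR-26a lies at a mean of 12.14 and miR-26b at 7.23.

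Within miR-26b the balance of the arms differed between the groups in these samples. The mean ratio of miR-26b-5p to miR-26b-3p was 189.7 ± 40.7 in NC and 121.5 ± 15.6 in GAA (SD, n = 2 each), and the samples did not overlap (exact permutation test, two-sided, p = 0.333). On the log2 scale the difference was -0.63, which ranked 12 of the 85 in size, where the median size was 0.25. A lower ratio in both GAA samples was found for 24.7% of the 85 miRNAs. For miR-26a the ratio of the arms overlapped between the groups, and NC-1, with 11 reads of the 3p arms, gave the highest value.

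The copies of miR-26a differed in their 3p arms. miR-26a-1-3p, from the Ctdspl intron, gave 0 of 11 and 1 of 19 copy-specific 3p reads in the NC libraries and 3 of 33 and 3 of 28 in the GAA libraries. The other reads were miR-26a-2-3p, from the Ctdsp2 intron. The share of the Ctdspl copy in these libraries was 0% (95% exact interval 0% to 28.5%), 5.26% (0.13% to 26.03%), 9.09% (1.9% to 24.3%) and 10.7% (2.3% to 28.2%), so the Ctdsp2 copy gave the majority of the 3p reads in every library. The ratio of the Ctdspl to the Ctdsp2 copy averaged 0.028 ± 0.039 in NC and 0.110 ± 0.014 in GAA (SD, n = 2 each). Both GAA samples lay above both NC samples in this ratio, with the smallest p that 2 against 2 samples allow (exact permutation test, two-sided, p = 0.333). The ratio rests on 0 to 3 reads of the Ctdspl copy in each library, and the counting intervals of the 4 libraries overlapped.

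Of 13 other miRNAs with arms named by copy in the same way, 5 had at least 10 reads of both copies in each library. The 4 with the highest levels were miR-24, miR-125b, miR-30c and let-7f. The log2 ratio of miR-24-1-5p to miR-24-2-5p was -3.90 and -3.78 in NC against -4.15 and -4.09 in GAA, and that of miR-30c-1-3p to miR-30c-2-3p was -1.73 and -2.07 against -1.88 and -1.54. The log2 ratio of miR-125b-1-3p to miR-125b-2-3p was 0.49 and 0.79 in NC against 1.09 and 1.23 in GAA, and that of let-7f-1-3p to let-7f-2-3p was -0.43 and -1.21 against -0.74 and -0.095. Like miR-26a, each of these 4 thus had the same higher copy in every library. It was the second copy for miR-24, miR-30c and let-7f and the first for miR-125b. The remaining pair, miR-16, named after its values were seen, had a log2 ratio of miR-16-1-3p to miR-16-2-3p of 0.51 and 0.50 in NC against -0.75 and -0.62 in GAA, so that its higher copy differed between the groups. Over the 5 pairs the log2 ratio of the copies moved by 0.19 to 1.19 between the groups. The minimum left out miR-26a itself and pairs with a nearly absent copy, which are those most like it. Among those left out, in the order NC-1, NC-2, GAA-1, GAA-2, miR-365-1-5p had 0, 1, 0 and 0 reads and miR-365-2-5p 17, 26, 62 and 35. For miR-181b-1-3p the reads were 35, 36, 63 and 65, and for miR-181b-2-3p 2, 1, 1 and 1. The names do not always tell copies apart, since let-7a-1-3p and let-7c-2-3p had the same reads in every library.

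The profile of miR-26a-5p over the samples, high in NC-1 and low in NC-2 by share of miRNA reads, was followed most closely by miR-31-5p, with a Euclidean distance of 0.015 between the log2 values centred over 4 samples. Next came miR-872-3p at 0.039, miR-30d-3p at 0.051, miR-450a-5p at 0.065 and miR-147-3p at 0.111. A looser closeness was common with 4 samples, since 181 of 322 miRNAs lay within 0.5 of miR-26a-5p and the median distance was 0.45. The other members were not among the nearest. miR-26b-5p lay at 0.278, with 76 miRNAs nearer, miR-26a-2-3p at 0.498 and miR-26b-3p at 0.509.

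Other miRNAs known to repress Ezh2 were taken as a list of 10, miR-101a-3p, miR-101b-3p, miR-138-5p, miR-214-3p, miR-124-3p, miR-98-5p, let-7a-5p, let-7b-5p, let-7c-5p and let-7e-5p. All 10 were detected, 9 of them with at least 10 reads in each library, and 0 passed the limma thresholds in RPM or by share. In RPM, 6 lay above NC in both GAA samples and 0 below, beside 38.6% and 5.52% of all detected miRNAs and 64.4% and 2.79% of the 323. The median log2 fold change of the list in RPM was 0.35, between 0.22 over all detected miRNAs and 0.49 over the 323. By share of miRNA reads 0 lay above and 4 below, beside 18% and 13.5% of all and 22.9% and 19.8% of the 323, and the median was -0.036 against 0.076 and 0.022. let-7c-5p, the most abundant of the list, took 0.996% and 1.15% of the miRNA reads in NC and 0.674% and 0.870% in GAA. let-7a-5p, at 0.386% and 0.453% in NC, overlapped with GAA at 0.366% and 0.465%. miR-101a-3p took 0.348% and 0.320% in NC and 0.240% and 0.257% in GAA, and let-7b-5p took 0.260% and 0.310% in NC and 0.202% and 0.252% in GAA. Thus miR-101a-3p and let-7b-5p were lower in each GAA sample than in either NC sample, as was let-7c-5p. The 4 below by share were miR-101a-3p, miR-101b-3p, let-7b-5p and let-7c-5p, which belong to the miR-101 and let-7 families, so they are not 4 independent values. The values of let-7 members are uncertain where a read matches more than one of these near-identical sequences. This may also hold for miR-101. miR-101c, which is not on the list, changed by -0.427 by share beside -0.426 for miR-101a-3p. Its lowest count, 2900.5 reads, was not whole.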

How the data were processed

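Small RNA of C2C12 myotubes was sequenced in 2 NC and 2 GAA samples. The authors filtered out adaptor, low-quality and repeat sequences, mapped the clean reads to GRCm38.p5, counted known miRNAs of miRBase 21 with miRDeep2 and divided by mappable reads. The values deposited for each sample are log2-transformed, log2(RPM + 1). A miRNA with no entry was set to 0. In a library, 3 reads correspond to 0.530 to 0.634 RPM.

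The groups were compared by limma 3.58.1 (R 4.3.3) over all 869 miRNAs, in RPM and per 1000000 miRNA reads. The fit had a mean-variance trend, condition as the only term, a pseudocount of 1, no filter and Benjamini-Hochberg adjustment. It was tested on simulated data with larger changes than those of the members, which does not show its power here. Because the files hold log2 values, the main fits used log2 values and no count model, while the voom alternative used the recovered reads. Single values were compared by exact permutation tests (scipy 1.17.1). Besides the members, the text names by rule the 5 miRNAs nearest to miR-26a-5p. It also names up to 4 each, by level, of the Ezh2 list and of the pairs named by copy. miR-16, miR-101c and the pairs below the minimum of 10 reads were named after their values were seen. The members and lists were chosen with earlier results of these data known. Positions came from GENCODE M21 (GRCm38) and sequences from RefSeq, which matched 5 of 5 members. Groups and replicate numbers came from the labels, which give no batch or date. Alternatives were a block for the replicate number, a crossed block chosen after seeing the data, another pseudocount (0.1), a minimum of 10 reads or of 1 RPM, a false discovery rate of 0.05, other divisors, voom weights and each sample left out. Figures were drawn with matplotlib 3.10.9.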

Additional observations from a re-analysis of the deposited data

How the results depend on the processing

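The number of members past the thresholds stayed at 0 under all alternatives run on both scales. Of 136 alternative values of 14 results, 130 kept their direction, their side of the threshold or both, as far as each applied. The other 6 turned direction. Counts of members called have no direction, and the ratios and the family share have no threshold. Both blocks, both minimums and the other false discovery rate leave a member's log2 fold change unchanged, so its direction could not turn there. The 130 thus include values that could not turn, and they do not measure how stable the results are. The log2 fold change of miR-26b-5p, 0.34 in RPM, turned negative where another divisor replaced the mappable reads. It was -0.19 with median-of-ratios factors, -0.048 with miRNA reads without the 5 most abundant and -0.13 with voom weights on miRNA reads. With 1 sample left out, the log2 fold change of miR-26a-5p per 1000000 miRNA reads ranged from -0.091 to 0.23 and that of the family share from -0.097 to 0.20, both negative without NC-2. With 1 added to both RPM values, the ratio of miR-26a-1-3p to miR-26a-2-3p, GAA minus NC, turned from 0.082 to -0.019; it rests on 0 to 3 reads of miR-26a-1-3p in each library. The cause of these turns was not tested. Values of other members moved by over 1.5 times when an NC sample was left out but kept their sign, from 0.19 to 0.49 for miR-26b-5p and from 0.29 to 0.86 for miR-26a-2-3p in RPM, and from 0.065 to 0.41 for miR-26a-2-3p and from 0.23 to 0.72 for miR-26b-3p by share. The log2 ratio of GAA to NC ranged from -0.85 to -0.40 for the arms of miR-26b and from 0.085 to 0.32 for miR-26a-5p over miR-26b-5p. miR-26a-1-3p has no value under the minimum of 10 reads or of 1 RPM.

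Over all miRNAs, the number called in RPM was 0. With other divisors in place of mappable reads, it was 1 with median-of-ratios factors or without the 5 most abundant, and 8 with voom weights. By share it was 1, and fell to 0 with the pseudocount of 0.1, with at least 10 reads and with each sample left out. With the replicate block it was 0 in RPM and 6 by share, and the adjusted p of miR-26b-3p in RPM was 0.420 with limma. Whether the numbers pair the samples is not known. Same-numbered deviations correlated at -0.15 over 323 miRNAs, which cannot decide it, since each group holds a single difference between replicates. The crossed replicate block gave 0 and 6. Both blocks changed no call of a member. Over the settings in RPM and with these other divisors, the adjusted p with limma ranged from 0.082 to 0.737 for miR-26b-3p. For miR-26a-5p it ranged from 0.143 to 0.979.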
